A study of Bienertia sinuspersici with 9 samples.

Results

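Genes of ribosome, rRNA and tRNA processing, and of translation initiation, 6 in all, were followed through leaf development of Bienertia sinuspersici (Bienertia), a plant that carries out C4 photosynthesis within single leaf cells. The 6 unigenes (assembled transcripts) were taken by identifier from the 11709 unigenes with normalized values, and all 6 were also among the 36907 unigenes of the larger table. Their names are those of the best hits in Arabidopsis: RRP4 (BS3279_c0_g1_i1), NAF1 (BS288_c2_g1_i3), AT1G02870 (BS4398_c0_g1_i1), TRM82 (BS12229_c0_g1_i1), RPS15A (BS7890_c0_g1_i1) and AT1G04170 (BS79606_c0_g1_i1). Leaves of wild-type plants gave 9 RNA-seq libraries, 3 replicates each of young leaves (under 0.3 cm), intermediate leaves (0.3 to 0.7 cm) and mature leaves (over 2 cm). Of mature leaves only the tip was used, so stage and leaf part cannot be told apart in comparisons with them. The libraries were made from mRNA, so the values below describe the messages of these genes and not rRNA or tRNA itself.

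In plants, as in other eukaryotes, ribosomes are built in the nucleolus. Ribosomal RNA is transcribed there as a long precursor that is cut, trimmed by exonucleases such as the RNA exosome, modified under the guidance of small nucleolar RNAs and assembled with ribosomal proteins. Transfer RNAs are trimmed and modified in the same cell before they serve translation. Growing organs with dividing cells are known for a high demand for new ribosomes. Of the 6 genes, RRP4, NAF1 and AT1G02870 belong to the making of ribosomes, TRM82 to the modification of tRNA, RPS15A to the ribosome itself and AT1G04170 to the start of translation.

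Values are given as TPM, transcript abundances per length that sum to the same total in each library, or as TPMTMM, TPM scaled between libraries by the trimmed mean of M values. Differences between stages were tested on log2(TPMTMM + 1) with limma, fitting all 9 libraries together, with Benjamini-Hochberg adjustment over all 11709 unigenes and a threshold of 0.05. As the tables hold no read counts, the number of reads behind a value is not known. By the study's own totals, each young library had more clean read pairs than each mature library. The labels call the replicates biological, but which plants went into which replicate was not stated. The p-values therefore describe the spread among these libraries, which may in part be technical.

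RRP4 and TRM82 fell in mature leaves, and the other 4 genes did not pass the test on TPMTMM in any comparison. In mature leaves RRP4 had 56.2% and TRM82 54.7% of their mean TPMTMM in young leaves, whereas the other 4 genes had 82.9% to 88.0%. The count of 2 of 6 that fell against young leaves stood beside 23.9% of all unigenes that did so. Against intermediate leaves the same 2 of 6 genes fell, beside 15.9% of all unigenes. Between intermediate and young leaves none of the 6 passed, although TRM82 had an unadjusted p under 0.05, beside 2.76% of all unigenes that fell. The log2 difference was below 0 for all 6 genes in intermediate against young and in mature against intermediate leaves. It was therefore also below 0 in mature against young leaves, where it is the sum of those 2. Its median over the 6 genes was -0.24 for mature against young leaves, beside -0.02 over all unigenes. It was -0.18 for mature against intermediate leaves and -0.10 for intermediate against young leaves, beside medians of all unigenes that rounded to 0.00. The share of all unigenes below 0 in both steps was not computed. With a library left out, AT1G02870 and NAF1 reached 0.081 and 0.046 in intermediate against young leaves. RPS15A and AT1G04170 reached 0.047 and 0.0052 in mature against intermediate leaves.

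**Figure D1:**
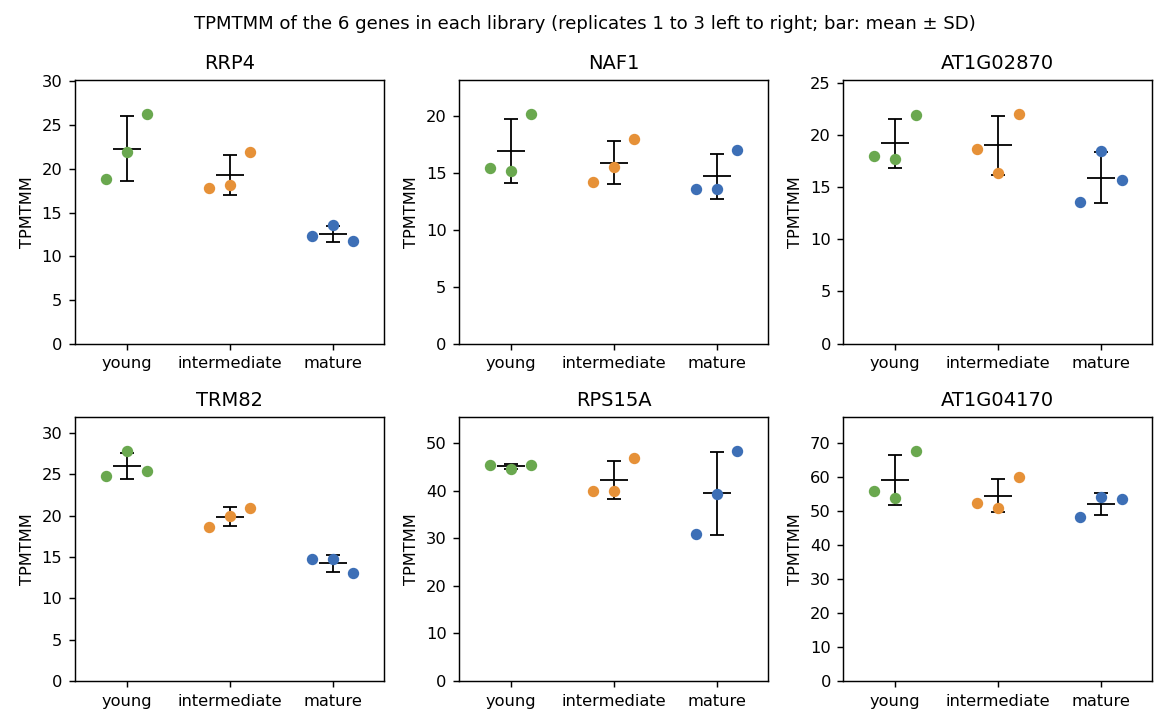
TPMTMM (vertical axis, from 0) of the 6 genes in each of the 9 libraries, by stage on the horizontal axis. Points are replicates 1 to 3 from left to right and bars are the mean ± SD. For RRP4 the 3 mature libraries lie between 11.7 and 13.5, below all others, and for TRM82 the 3 stages form separate steps, while the points of the other 4 genes overlap between stages.

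RRP4 is a core subunit of the RNA exosome, the complex that trims the ends of rRNA precursors and degrades faulty RNA. It had 18.9, 21.9 and 26.3 TPMTMM in young leaves, 17.8, 18.2 and 22.0 in intermediate leaves and 12.3, 13.5 and 11.7 in mature leaves (replicates 1, 2 and 3). All 3 mature libraries lay below all others, whereas young and intermediate libraries overlapped. The means were 22.3 ± 3.73 TPMTMM at the young stage, 19.3 ± 2.32 at the intermediate and 12.5 ± 0.914 at the mature stage (SD, n = 3 each). The log2 fold change of mature against young leaves was -0.77 (standard error 0.14, limma adjusted p = 0.00179), with a 95% interval of -1.09 to -0.46. Against intermediate leaves it was -0.58 (standard error 0.14, limma adjusted p = 0.0128). The difference between intermediate and young leaves, -0.19, was within the spread (interval -0.51 to 0.12, limma adjusted p = 0.506). RRP4 thus passed the test for the second step of development and not for the first. The 2 steps were also compared directly, and the second less the first came to -0.39 on the log2 scale, with an interval of -0.93 to 0.16 (limma adjusted p = 0.529), so no difference between the steps was shown. In this contrast 0 of the 6 genes passed, and none had an unadjusted p under 0.05, beside 2.26% of all unigenes that passed in either direction.

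NAF1 is known in yeast and human as an assembly factor of H/ACA ribonucleoproteins, the particles that convert uridines of rRNA to pseudouridine. It was the lowest of the 6 genes by mean TPM. It had 15.4, 15.1 and 20.1 TPMTMM in young leaves, 14.2, 15.5 and 17.98 in intermediate leaves and 13.6, 13.5 and 17.0 in mature leaves. The third replicate was the highest at each stage, and the stages overlapped. The log2 fold change was -0.19 for mature against young leaves (interval -0.52 to 0.15, limma adjusted p = 0.331), -0.11 for mature against intermediate leaves (interval -0.44 to 0.23) and -0.08 for intermediate against young leaves (interval -0.42 to 0.26). These intervals leave room for a fall as well as for a small rise.

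AT1G02870 is annotated as a nucleolar protein, and its counterpart in yeast, Nop16, takes part in making the large ribosomal subunit. It had 17.995, 17.7 and 21.9 TPMTMM in young leaves, 18.7, 16.4 and 22.0 in intermediate leaves and 13.6, 18.5 and 15.7 in mature leaves. Mature 1 and mature 3 lay below all young and intermediate libraries, but mature 2 lay within them. The log2 fold change of mature against young leaves was -0.26 (interval -0.60 to 0.08, limma adjusted p = 0.187), and against intermediate leaves it was -0.24 (interval -0.59 to 0.10, limma adjusted p = 0.255). Young and intermediate leaves were nearly level, with a log2 difference of -0.02 (interval -0.36 to 0.33).

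TRM82 is known in yeast as the non-catalytic partner of Trm8, with which it forms the enzyme that adds a methyl group to a guanosine of tRNA. It had 24.9, 27.8 and 25.4 TPMTMM in young leaves, 18.7, 20.0 and 21.0 in intermediate leaves and 14.8, 14.8 and 13.1 in mature leaves. Every mature library lay below every intermediate one and every intermediate library below every young one, an order that no other of the 6 genes had and that 8.79% of all unigenes showed. The means were 26.0 ± 1.55 TPMTMM at the young stage, 19.9 ± 1.17 at the intermediate and 14.2 ± 1.00 at the mature stage (SD, n = 3 each). TRM82 fell by 0.83 on the log2 scale in mature against young leaves (standard error 0.10, interval -1.05 to -0.61, limma adjusted p = 0.000154). It fell by 0.46 in mature against intermediate leaves (standard error 0.10, limma adjusted p = 0.00694), a call that was lost when only these 2 stages were fitted and blocked by replicate number (limma adjusted p = 0.0641). In that block mature 2 was paired with intermediate 2, although their deviations from the stage means correlated at -0.476. For intermediate against young leaves the log2 fold change was -0.37 (interval -0.59 to -0.15, limma adjusted p = 0.0579), just outside the threshold although the libraries did not overlap. Same-numbered young and intermediate libraries deviated together, though numbers 1 and 2 were not told apart. When only these 2 stages were fitted and blocked by replicate number TRM82 passed (limma adjusted p = 0.0203), as the only 1 of the 6. Of all unigenes, 2609 passed this comparison with that block, against 760 with the same stages and no block and 673 with all 9 libraries and no block, while a block over all 9 libraries gave 496. The second step less the first was -0.09 for TRM82 (interval -0.46 to 0.29), so that its 2 steps were not shown to differ in size.

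**Figure D2:**
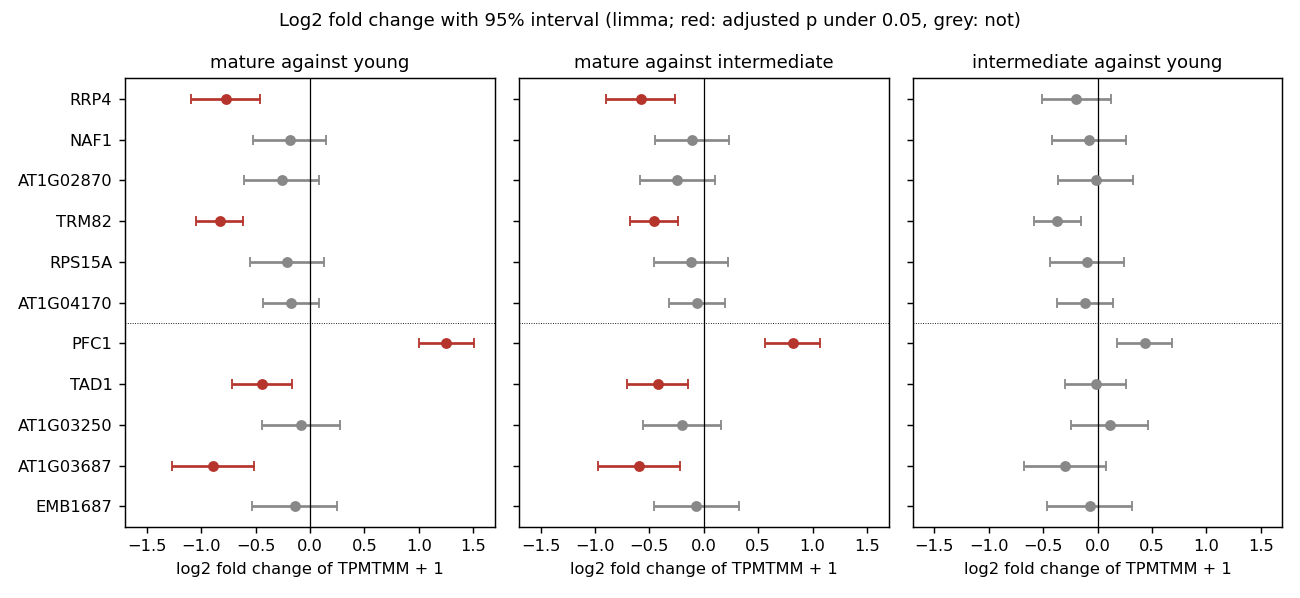
Log2 fold changes of TPMTMM + 1 (horizontal axis) with 95% intervals from limma, for the 6 genes above the dotted line and 5 other rRNA and tRNA processing genes below it, in a panel for each comparison of stages. Red marks an adjusted p under 0.05. RRP4 (-0.77) and TRM82 (-0.83) lie clear of 0 in mature against young leaves, PFC1 lies on the other side at 1.25, and all points for intermediate against young leaves are grey.

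RPS15A encodes a protein of the small ribosomal subunit. It had 45.4, 44.6 and 45.5 TPMTMM in young leaves, 40.0, 40.0 and 47.0 in intermediate leaves and 30.8, 39.4 and 48.3 in mature leaves. The young libraries agreed within 1 TPMTMM, whereas mature 1 was the lowest and mature 3 the highest of all 9 libraries. The log2 fold change of mature against young leaves was -0.21 (interval -0.55 to 0.13, limma adjusted p = 0.277). Mature 3 decided this call, since without it RPS15A fell by 0.36 (limma adjusted p = 0.0489). The log2 difference was -0.12 for mature against intermediate leaves (interval -0.46 to 0.23) and -0.10 for intermediate against young leaves (interval -0.44 to 0.25).

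RPS15A was also the only 1 of the 6 genes whose assembled component (a group of transcripts that the assembler linked through shared sequence) held other unigenes, of which there were 3. Reads of such unigenes can be split between them in the quantification, so the level of any of them is less certain. By their identifiers, BS7890_c0_g1_i7 and BS7890_c0_g1_i8 share the gene label g1 with RPS15A and differ in the isoform (transcript variant) label. BS7890_c0_g3_i2 has another gene label. The values of RPS15A therefore describe 1 isoform of its assembled gene and not the whole of it. RPS15A itself was a minor unigene of its component, with 7.50 ± 0.730% of the summed TPM at the young stage, 7.38 ± 0.539% at the intermediate and 8.41 ± 1.92% at the mature stage (SD, n = 3 each). The share was 0.911 percentage points higher in mature than in young leaves, which was within the spread (exact permutation test, two-sided p = 0.7, where 0.1 is the smallest that 3 libraries against 3 allow). Most of the component was BS7890_c0_g1_i7, a unigene that was not named in the annotation used here, with 85.3% to 89.7% of the summed TPM in the 9 libraries. BS7890_c0_g1_i7 had 357, 474 and 384 TPMTMM in mature leaves, against 479, 499 and 595 in young leaves. These groups did not overlap, but mature 2 came close to young 1, and the log2 fold change of -0.38 did not pass (interval -0.76 to 0.01, limma adjusted p = 0.0972). Another unigene, BS7890_c0_g1_i8, had 12.3, 14.8 and 17.0 TPMTMM in mature leaves, against 31.7, 23.6 and 23.6 in young leaves. It fell by 0.80 on the log2 scale against young leaves (limma adjusted p = 0.00289) and by 0.69 against intermediate leaves (limma adjusted p = 0.0102). The remaining unigene, BS7890_c0_g3_i2, had 0.64 to 6.34 TPM over the 9 libraries and no TPMTMM. The unigenes of 1 component thus differed in whether they passed the test, and the difference between their changes was not tested.

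**Figure D3:**
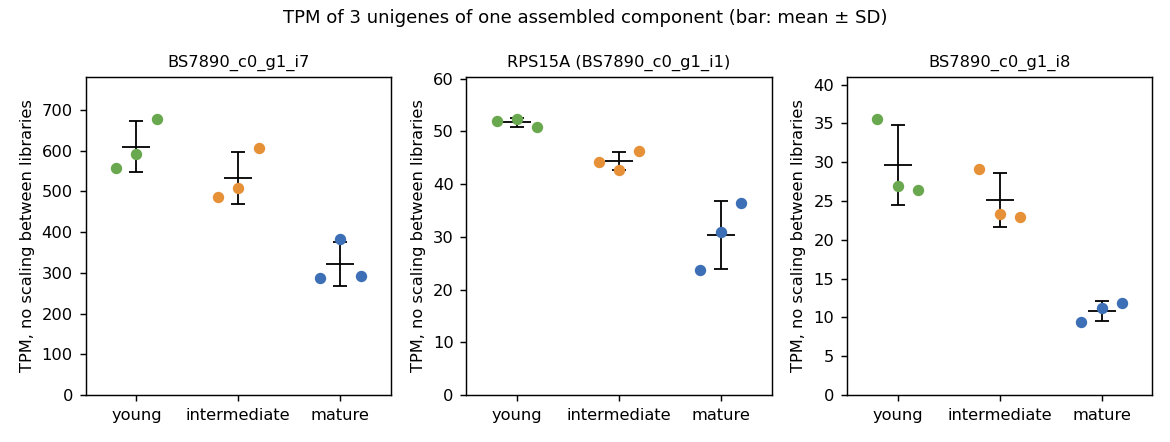
TPM without scaling between libraries (vertical axes, from 0, each with its own range) of the 3 unigenes of the RPS15A component that have TPMTMM values, by stage on the horizontal axis. Points are replicates 1 to 3 from left to right and bars are the mean ± SD. BS7890_c0_g1_i7 reaches 679 TPM, whereas RPS15A stays at 52.4 TPM or less.

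AT1G04170 encodes the gamma subunit of eIF2, the factor that carries the initiator tRNA to the ribosome. It had the highest mean TPM of the 6 unigenes, 55.1 over the 9 libraries. The whole component of RPS15A stood higher, with a mean summed TPM of 694, 605 and 364 at the young, intermediate and mature stage. AT1G04170 had 55.7, 53.8 and 67.4 TPMTMM in young leaves, 52.4, 50.9 and 59.9 in intermediate leaves and 48.1, 54.2 and 53.5 in mature leaves. The stages overlapped, with young 3 standing above the other 8 libraries. The log2 fold change was -0.18 for mature against young leaves (interval -0.43 to 0.08, limma adjusted p = 0.232), -0.06 for mature against intermediate leaves (interval -0.32 to 0.19) and -0.11 for intermediate against young leaves (interval -0.37 to 0.15). AT1G04170 varied least of the 6 genes, with a coefficient of variation of 10.2% over the 9 libraries, and RRP4 and TRM82 varied most, with 27.0% and 26.1%.

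By mean TPM over the 9 libraries, which is per transcript length, the genes followed in the order AT1G04170 (55.1), RPS15A (42.2), TRM82 (19.9), RRP4 (17.9), AT1G02870 (17.5) and NAF1 (15.1). The first 2 stood apart from the lower 4 in every library, with RPS15A counted as its 1 unigene and not as its whole component. Among the lower 4, the order changed with the stage. TRM82 led them in young leaves with 29.0 ± 2.29 TPM, above RRP4 with 24.8 ± 4.17 TPM (SD, n = 3 each), and these 2 overlapped. In mature leaves AT1G02870 had 11.8 ± 2.20 TPM, NAF1 10.5 ± 1.24, TRM82 10.2 ± 1.43 and RRP4 9.09 ± 1.24 (SD, n = 3 each), and none of these neighbours differed beyond their spread.

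Overlap between libraries was read from the same TPMTMM values as the test, so it is no separate support for it. In comparisons with mature leaves, RRP4 and TRM82 were the genes without overlap. In TPMTMM, all mature libraries lay below all young libraries for 2 of the 6 genes, beside 29.3% of all unigenes, and below all intermediate libraries for the same 2, beside 23.5%. All intermediate libraries lay below all young ones for TRM82 alone, beside 15.7% of unigenes. Young 3 and intermediate 3 were both the highest of their stage for 5 of the 6 genes (TRM82 was the exception), a pattern that 29.4% of all unigenes had.

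The scaling between libraries changed how many of the genes passed. The factor that turns TPM into TPMTMM was 0.858 ± 0.0171 at the young stage, 0.932 ± 0.0587 at the intermediate and 1.26 ± 0.0421 at the mature stage (SD, n = 3 each). In TPM without this scaling all 6 genes had every mature library below every young one, beside 59.1% of all unigenes, and below every intermediate one, beside 51.4%. In the first step, 3 of the 6 genes had every intermediate library below every young one, beside 27.4% of unigenes. All 6 genes passed the test as lower in mature against young leaves on this scale, beside 6663 of the 11709 unigenes. All 6 also passed as lower in mature against intermediate leaves, beside 5647 of the 11709. The median unigene itself stood at -0.57 in mature against young leaves in unscaled TPM, so these differences hold a shift common to the table. Relative to that shift the pattern was as in TPMTMM. TRM82 stood at -1.42 and RRP4 at -1.35 in unscaled TPM, AT1G02870, RPS15A, NAF1 and AT1G04170 at -0.82, -0.77, -0.75 and -0.74. Scaled to the upper quartile, RRP4 and TRM82 were again the only ones of the 6 to pass in mature against young leaves. There 3913 of the 11709 unigenes fell. The same 2 passed when scaled to RPT6A and SAND, which the study used as references for qRT-PCR, beside 2772 unigenes that fell. The study had identified these references as not differentially expressed in its own transcriptome. Scaling to them is therefore not independent of TPMTMM.

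**Figure D4:**
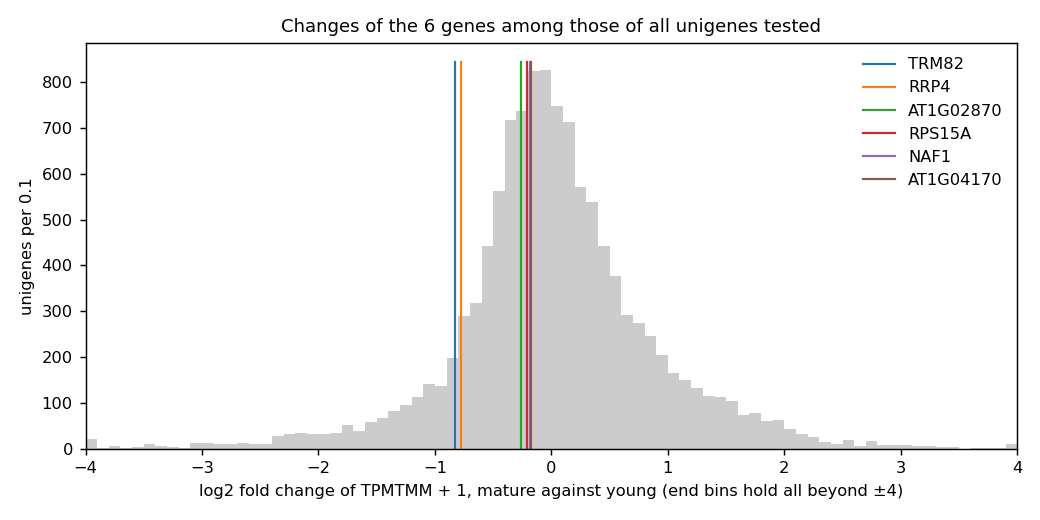
Number of unigenes (vertical axis) per 0.1 of log2 fold change of TPMTMM + 1 in mature against young leaves (horizontal axis), over all 11709 unigenes, with the 6 genes as vertical lines. TRM82 and RRP4 stand on the lower flank, where 10.6% and 11.8% of unigenes lie below them, and the other 4 lie close together just below 0, with 33.4% to 39.2% of unigenes below them.

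A comparison that needs no scaling is the level of each gene relative to another in the same library. AT1G04170 was taken as the base after its values had been seen, as the most abundant and least variable of the 6 unigenes. These ratios are given with no test. RRP4 had 23.2, 24.3 and 20.3% of the TPM of AT1G04170 in mature leaves, against 31.9, 39.7 and 38.2% in young leaves. TRM82 had 28.1, 26.6 and 21.8% in mature leaves, against 43.2, 50.1 and 36.4% in young leaves. For both genes the mature libraries lay below all young and all intermediate ones. The share of all unigenes that lie apart in this way on the ratio was not computed. NAF1 had 23.5% to 30.0% of AT1G04170 in mature leaves, against 26.2% to 28.7% in young leaves, and here the libraries overlapped. AT1G02870 had 27.1% to 33.2% in mature leaves, against 31.3% to 32.4% in young leaves. RPS15A had 62.9% to 91.8% in mature leaves, against 67.3% to 83.2% in young leaves, with means of 77.1%, 77.3% and 75.5% from the young to the mature stage.

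**Figure D5:**
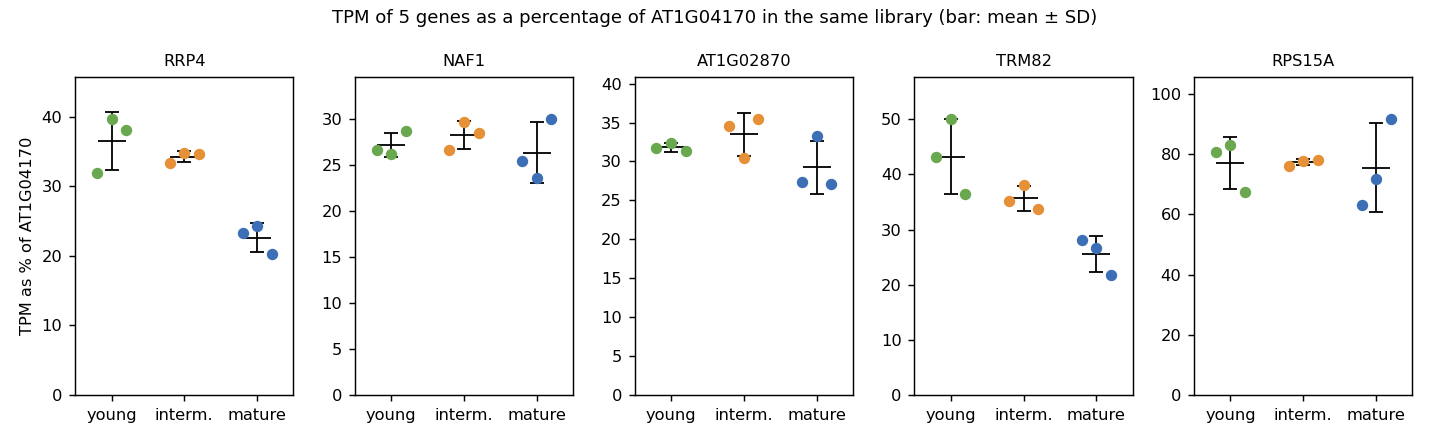
TPM of 5 genes as a percentage of the TPM of AT1G04170 in the same library (vertical axes, from 0), by stage on the horizontal axis. Points are replicates 1 to 3 from left to right and bars are the mean ± SD. The ratios of RRP4 (20.3% to 24.3%) and TRM82 (21.8% to 28.1%) in mature leaves lie below those of all young and intermediate libraries, whereas those of NAF1, AT1G02870 and RPS15A overlap.

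Marker genes of several cell types also changed between the stages. Genes of dividing cells were HTR12 (centromeric histone), TPX2 (spindle protein), BARD1 (DNA repair) and CTF18 (sister chromatid cohesion). All 4 fell in mature against young leaves, beside 23.9% of all unigenes. In mature against intermediate leaves 3 fell, beside 15.9%, and in intermediate against young leaves 1 fell, beside 2.76%. Their summed level was 70.7 to 84.9 TPMTMM at the young stage, 52.7 to 58.9 at the intermediate and 33.3 to 39.4 at the mature stage, and none had a TPM of 0 in any library. Of 3 epidermis genes (CER1, KCS1 and GPAT4), 2 fell in mature against young leaves, beside 23.9% of all unigenes. All 3 fell in mature against intermediate leaves, beside 15.9%, and none passed in intermediate against young leaves. Their summed levels were 265 to 315 TPMTMM at the young stage, 302 to 315 at the intermediate and 159 to 164 at the mature stage. Of 5 genes of photosynthesis and chlorophyll synthesis (PEPC1, PPDK, NAD-ME2, PSAD2 and PORC) all 5 rose in mature against young leaves, beside 24.2% of all unigenes. Their sums were 4510 to 4560, 7222 to 11467 and 22635 to 23206 TPMTMM at the 3 stages in order. The part of these cell types in the differences of RRP4 and TRM82 was not tested. In whole leaves, fewer cells of a type and less RNA per cell cannot be told apart.

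The named genes most alike to each of the 6 over the 9 libraries were taken from 132 unigenes that were named in the annotation used here and had a mean of at least 10 TPMTMM. The points share their libraries and their scaling, so the correlations are a description. RRP4 was most like AT1G01630 (Pearson r = 0.98 of log2 values), AT1G03687 (0.98) and AN (0.97). TRM82 was most like BARD1 (0.96), SPL8 (0.95) and VAMP726 (0.95). BARD1, the first of these, is also a marker of dividing cells in the list above. Values this high were common, since 7.83% of all other unigenes had r over 0.9 with TRM82 and 6.75% with RRP4. For the other 4 genes this share was 0.188% to 0.854%. NAF1 was most like AT1G04170 (0.85), AT1G04210 (0.85) and GIF2 (0.79). AT1G02870 was most like AT1G04170 (0.87), AT1G03687 (0.84) and AT1G03180 (0.82). Both NAF1 and AT1G02870 were thus most like AT1G04170, while r between the pair themselves was 0.62. RPS15A was most like PDLP2 (0.91), AT1G04210 (0.87) and KINUB (0.80), and AT1G04170 was most like AT1G02870 (0.87), NAF1 (0.85) and AT1G01730 (0.83). Between RRP4 and TRM82 themselves r was 0.92 over the 9 libraries and 0.46 over the deviations from the stage means, while for AT1G02870 and AT1G04170 these were 0.87 and 0.90.

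Other genes of rRNA and tRNA processing in the same annotation, 5 in number, went different ways. In mature against young leaves 1 of the 5 rose, beside 24.2% of all unigenes that rose, 2 fell, beside 23.9% that fell, and 2 did not pass. In mature against intermediate leaves 1 rose, beside 16.1% of all unigenes, 2 fell, beside 15.9%, and 2 did not pass. In intermediate against young leaves none of the 5 passed in limma, and PFC1 alone had an unadjusted p under 0.05. PFC1, at 0.43 on the log2 scale, passed in this comparison when these stages alone were fitted and blocked by replicate number (limma adjusted p = 0.029) and without mature 1 (limma adjusted p = 0.0469). PFC1, which methylates the rRNA of plastids, had 33.3, 35.7 and 36.5 TPMTMM in mature leaves, against 14.6, 16.0 and 12.3 in young leaves. It rose by 1.25 on the log2 scale (standard error 0.11, limma adjusted p = 4.0e-05), and its intermediate libraries, with 18.2 to 20.4 TPMTMM, lay between. PFC1 and TRM82 thus both formed steps through the 3 stages, in opposite directions.

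AT1G03687 encodes a DTW domain protein, and proteins of this family modify tRNA uridines in bacteria and human. It had 6.17, 8.62 and 6.53 TPMTMM in mature leaves, against 12.0, 13.5 and 16.6 in young leaves, and fell by 0.89 (standard error 0.17, limma adjusted p = 0.0022). TAD1, a deaminase that converts an adenosine of alanine tRNA to inosine, had 4.93, 4.92 and 3.92 TPMTMM in mature leaves, against 6.86, 6.73 and 6.13 in young leaves. It fell by 0.44 (standard error 0.12, limma adjusted p = 0.0166), a call that was lost without young 1 or without young 2, and at these low values the 1 added before the log pulls the change toward 0. Against intermediate leaves the log2 fold change was -0.60 for AT1G03687 (limma adjusted p = 0.0244) and -0.42 for TAD1 (limma adjusted p = 0.029). Both calls were lost when these 2 stages alone were fitted and blocked by replicate number, as that of TRM82 was, and that of TAD1 was lost without the block too. AT1G03250, an R3H domain protein annotated to ribosome biogenesis, had a log2 difference of -0.09 in mature against young leaves (interval -0.44 to 0.27). EMB1687, the POP5 subunit of the RNases that cut precursors of tRNA and rRNA, had -0.14 (interval -0.53 to 0.25), with mature 1 as its highest library (17.3 TPMTMM) and mature 3 as its lowest (10.4 TPMTMM). Mature 1 decided this call, since without it EMB1687 fell by 0.35 (limma adjusted p = 0.0244), whereas without mature 3 its log2 difference was -0.014.

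The nearest group of RNA processing genes at hand was 7 splicing and exon junction genes. In mature against young leaves 4 of them fell (LSM2, PRP39, SR34 and PRP19A), beside 23.9% of all unigenes. Of the others, 1 rose (AT1G03140), beside 24.2% of all unigenes, and 2 (MAGO and CTN) did not pass. Their median log2 difference was -0.39, beside -0.24 for the 6 genes and -0.02 for all unigenes, and the difference between the groups was not tested. None of the 7 passed in mature against intermediate leaves in limma, beside 15.9% of all unigenes that fell and 16.1% that rose. An unadjusted p under 0.05 was found there for LSM2, SR34 and PRP19A, which were lower, and for AT1G03140, which was higher. None passed in intermediate against young leaves, beside 2.76% that fell, and PRP39 alone had an unadjusted p under 0.05. The share of all unigenes with such an unadjusted p was not computed.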

How the data were processed

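Total RNA of young, intermediate and mature leaves was sequenced as stranded mRNA libraries, 3 per stage. Reads were trimmed by the authors (Trimmomatic), assembled de novo (Trinity), quantified (RSEM) and made less redundant (CD-HIT-EST), with tool versions of Trimmomatic and RSEM not given in the sources used here. The deposited TPM (36907 unigenes) are not counts, and neither are the TPMTMM (11709 unigenes). For all but 1 unigene TPMTMM is the whole-number rounding of TPM with 1 added, multiplied by a factor of the library (tolerance 0.001), so decimals of TPM are lost in it, and this 1 and the 1 added before the log2 both understate changes of low unigenes.

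The study's methods name a count model, which these values do not allow, so limma-trend (R 4.3.3, limma 3.58.1) was used on log2(TPMTMM + 1), with stage as the only term, Benjamini-Hochberg adjustment and a threshold of 0.05. The test was checked on simulated data. Other values came from Python 3.11.15 with pandas 2.3.3, numpy 2.4.6 and scipy 1.17.1, and figures from matplotlib 3.10.9. Columns of the tables were matched to samples by the labels' descriptions.

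The 6 genes, the lists and the rule for named genes were chosen with earlier results of these data known. Named were the 6 genes, 5 other rRNA and tRNA processing genes, 7 splicing genes, marker genes, unigenes of the same component, and for each of the 6 the 3 named unigenes most correlated with it. Names came from a shortened copy of the study's annotation, so the lists hold only genes at hand. The authors' fold changes in it were not used.

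Replicate numbers were checked as pairs by correlating deviations from the stage means. Libraries of intermediate and young leaves with the same number correlated at 0.467, 0.445 and 0.696 and were taken as pairs, though young 1 correlated more with intermediate 2 (0.508) and young 2 more with intermediate 1 (0.547), so numbers 1 and 2 were not told apart by this check. Those of mature 2 were negative (-0.427 with young 2, -0.476 with intermediate 2), whereas mature 2 correlated at 0.525 with young 3 and at 0.589 with intermediate 3. Blocks by number that hold mature libraries thus join some libraries that did not deviate together. Alternatives covered the value added before the log2, low values, scaling, the set of unigenes, the replicate block, fits of 2 stages, the trend, and leaving out each library.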

Additional observations from a re-analysis of the deposited data

How the results depend on the processing

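RRP4 passed in mature against young and in mature against intermediate leaves under all 21 alternatives, and TRM82 in mature against young leaves under all 21 (limma). In mature against young leaves RRP4 ranged from -1.35 to -0.51 and TRM82 from -1.42 to -0.57 on the log2 scale. In mature against intermediate leaves TRM82 lost its call under 1 alternative, the replicate block with these stages alone (limma adjusted p = 0.0641). TRM82 gained a call in intermediate against young leaves with that block, with 10 added before the log2 and without mature 1, and PFC1 with that block and without mature 1. The block over 9 libraries changed no call among the 6 genes.

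The number of members that passed in mature against young leaves, 2, became 6 in TPM without scaling and 2 to 3 with a library left out. In mature against intermediate leaves it was 2, with 6 of the members in TPM without scaling, 1 with the replicate block on these stages alone and 2 with any library left out. In intermediate against young leaves 0 members passed, and 1 did with 10 added before the log2, 1 with the block on these stages alone, and 0 to 1 with a library left out (1 without mature 1).

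Of all unigenes, 5630 passed in mature against young leaves, and 11057 of the 36907 when the whole TPM table was scaled by the library factors. Of all unigenes, 3744 passed in mature against intermediate leaves, 6419 in TPM without scaling and 6304 with the whole TPM table. In intermediate against young leaves 673 unigenes passed, 328 with the whole TPM table, 760 with these stages alone, 2609 with these stages alone and the replicate block, 496 with the block over 9 libraries, and 62 (without young 2) to 1134 (without mature 1) with a library left out. In the second step less the first 265 unigenes passed, 727 in TPM without scaling and 41 to 469 with a library left out. In mature against young leaves higher and lower calls were 2829 and 2801 in TPMTMM, 2281 and 3913 with upper-quartile scaling, and 1297 and 6663 in TPM without scaling. The causes of these changes were not tested.

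Directions turned only for differences that had not passed the test. In the second step less the first, AT1G04170 turned to -0.28 in TPM without scaling. There EMB1687 turned to 0.0067 with 10 added, 0.081 with RPT6A and SAND scaling and 0.018 with the whole TPM table, and RPS15A to 0.031 with RPT6A and SAND scaling. With a library left out, the ranges were -0.12 to 0.081 for AT1G02870, -0.17 to 0.046 for NAF1 and -0.090 to 0.031 for TAD1 in intermediate against young leaves. They were -0.11 to 0.0052 for AT1G04170, -0.28 to 0.055 for EMB1687 and -0.27 to 0.047 for RPS15A in mature against intermediate leaves, and -0.21 to 0.085 for AT1G03250 in mature against young leaves. In the second step less the first they were -0.053 to 0.19 for AT1G04170, -0.21 to 0.12 for EMB1687, -0.17 to 0.15 for NAF1 and -0.17 to 0.14 for RPS15A. TAD1 has no value where a mean of at least 10 TPMTMM is required, and it lost its call in mature against intermediate leaves under 7 alternatives. AT1G03687 lost its call in mature against intermediate leaves without intermediate 1, intermediate 3, mature 1 or mature 3.

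Depth per value is unknown, so no counting interval can be given. With 3 libraries per stage, 4 of the 6 genes have intervals that hold falls of 0.43 or more on the log2 scale in mature against young leaves, and not passing does not show that they were level.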
